A study of Glycine max with 4 samples.

Results

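Transcripts of 3 soybean (Glycine max) acid phosphatase genes were followed in roots: GmHAD1, also called GmACP1 (Glyma.08G195100.Wm82.a2.v1, chromosome 8), and a pair of vegetative storage protein (VSP) genes, Glyma.07G014500.Wm82.a2.v1 on chromosome 7 and Glyma.08G200100.Wm82.a2.v1 on chromosome 8. They were chosen by identifier from the 47973 genes listed in at least 1 library. The libraries were made from transgenic soybean in which GmHAD1-2 was suppressed (labelled Ri, n = 2) and from wild-type soybean (WT, n = 2), both kept for 12 days in nutrient solution with KH2PO4 before the roots were taken. The phosphate level is stated as 250 mM, which is far above what plant nutrient solutions commonly hold and may be a slip for micromolar, and plants of both genotypes received it. The replicates are described as biological, but the number of plants per library, the suppression construct, its promoter and the number of independent transformed lines are not stated there. No identifier is given for GmHAD1-2, so whether it is one of the 3 genes was not settled and its suppression was not checked.

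Acid phosphatases release phosphate from organic esters at acidic pH. Those described here belong to the haloacid dehalogenase (HAD) superfamily and are distinct from the metal-containing purple acid phosphatases. Enzymes of this superfamily typically pass the phosphate through an aspartate of the active site. Whether the soybean VSPs carry that aspartate was not checked, as no protein sequence was at hand, so the mechanism is not ascribed to them. GmACP1 was described from soybean mapping work on phosphorus efficiency. The soybean VSPs are vacuolar glycoproteins best known from leaves and other young shoot tissue, where they hold amino acid nitrogen in reserve, accumulate when seed sinks are removed and are induced by jasmonate and wounding. They have only weak phosphatase activity.

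The libraries held 10077854 to 11070260 expected counts (estimated fragments per gene), so that 3 counts, taken as the floor of a library, corresponded to 0.264 to 0.306 CPM (counts scaled to the TMM-adjusted library size). Intervals below are exact 95% intervals for counting error only, since reads without molecular identifiers are not independent molecules. The names of the genes rest on the identifiers used to choose them. The RefSeq table of another assembly (Glycine_max_v4.0) lists VSPA on chromosome 7 and both VSPB and ACP1 on chromosome 8, but 0 of the 47973 identifiers matched it, and markers of root, shoot or nodule could not be tied to identifiers, so the root label was not checked. In a whole-root extract, fewer cells of a type and less RNA per cell cannot be told apart.

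Both VSP genes were far higher in one Ri library than in the other libraries. GmHAD1 was low in both genotypes, at 2 to 12.02 counts per library against the floor of 3. None of the 3 genes differed between Ri and WT beyond the spread between replicates. Among 34151 genes tested with edgeR's quasi-likelihood test, 40 passed a Benjamini-Hochberg adjusted p of 0.05, or 0.117%. Of the 2 members that entered the test 0 passed in edgeR and 0 in DESeq2, which called 0.925% of the same genes. At an unadjusted p under 0.05 edgeR gave 1 of the 2 members and 6.25% of all tested genes.

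GmHAD1 had 12.02 and 2 expected counts in Ri replicates 1 and 2, against 8 and 3.02 in WT replicates 1 and 2. These counts correspond to 1.23 and 0.176 CPM in the Ri libraries and to 0.735 and 0.291 CPM in the WT libraries. The value in Ri replicate 2 was below the floor of that library, 0.264 CPM, and WT replicate 2 was just above its floor of 0.289 CPM. Ri replicate 1 was the highest of the 4 libraries and Ri replicate 2 the lowest, so the WT values lay inside the Ri range. The gene averaged 0.701 ± 0.743 CPM in Ri and 0.513 ± 0.314 CPM in WT (SD, n = 2 each), a 1.37-fold higher mean in Ri.

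Counting error alone spans most, but not all, of these differences in GmHAD1. The level in Ri replicate 1 was 1.67 times that of WT replicate 1, with an interval of 0.626 to 4.70, and the level in Ri replicate 2 was 0.610 times that of WT replicate 2, with an interval of 0.0509 to 5.32. Across the replicate numbers, Ri replicate 1 was at 4.24 times the level of WT replicate 2 (interval 1.14 to 23.4) and Ri replicate 2 at 0.239 times that of WT replicate 1 (interval 0.0248 to 1.20). Between the Ri replicates, replicate 2 was at 0.144 times the level of replicate 1 (interval 0.0156 to 0.646). The gene did not pass the filter on low counts and therefore has no value in the main test. Without that filter the estimate was a log2 fold change of 0.40 ± 1.02 (SE), at an adjusted p of 0.961 in edgeR. Without WT replicate 2 the estimate was -0.08, and without WT replicate 1 it was 1.22. Per length, GmHAD1 reached 0.95 and 0.14 FPKM (fragments scaled by length and depth) in the Ri libraries and 0.59 and 0.22 FPKM in the WT libraries. A difference between genotypes was not detectable at this depth and with this spread between the 2 libraries per genotype.

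**Figure D1:**
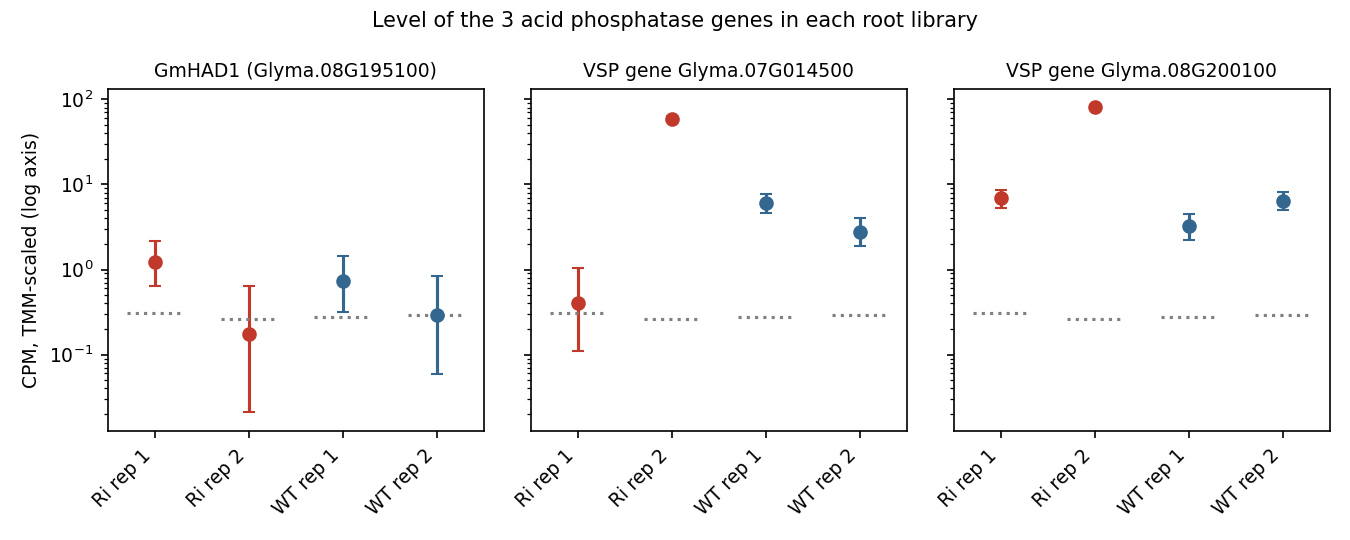
Level of each gene in each library, in CPM on a log axis shared by the 3 panels, with Ri in red and WT in blue. Points are single libraries, bars are exact 95% Poisson intervals for counting error, and dotted lines mark the floor of 3 counts. GmHAD1 lies at 0.176 to 1.23 CPM, and both VSP genes are highest in Ri replicate 2, at 58.7 and 81.3 CPM.

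The VSP gene on chromosome 7, Glyma.07G014500, had 4 and 667 expected counts in Ri replicates 1 and 2, against 65 and 29 in WT replicates 1 and 2. As CPM the levels were 0.408 and 58.7 in the Ri libraries and 5.97 and 2.79 in the WT libraries. The Ri libraries thus lay on opposite sides of the WT libraries, one below both and the other above both. The means were 29.6 ± 41.2 CPM in Ri and 4.38 ± 2.25 CPM in WT (SD, n = 2 each).

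The differences between single libraries of Glyma.07G014500 were larger than counting error in both directions. Ri replicate 2 was 9.83-fold above WT replicate 1 (interval 7.61 to 12.9) and 21.0-fold above WT replicate 2 (interval 14.5 to 31.6). Ri replicate 1 was at 0.0683 times the level of WT replicate 1 (interval 0.0181 to 0.183) and at 0.146 times that of WT replicate 2 (interval 0.0373 to 0.416). Within one genotype, Ri replicate 2 was 144-fold above Ri replicate 1 (interval 55.9 to 529), whereas the WT replicates differed 2.14-fold. The fitted log2 fold change of 2.75 ± 1.69 (SE) did not pass, at an adjusted p of 0.883 in edgeR and of at least 0.841 in every alternative with all 4 libraries. Its direction depended on Ri replicate 2, the only library whose removal gave a negative value. Without Ri replicate 2 the log2 fold change was -3.39, and without Ri replicate 1 it was 3.74. Each of these fits assumed that the lone Ri library varied like the WT libraries.

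The VSP gene on chromosome 8, Glyma.08G200100, had 67 and 924 expected counts in Ri replicates 1 and 2, against 35 and 67 in WT replicates 1 and 2. The corresponding levels were 6.84 and 81.3 CPM in the Ri libraries and 3.22 and 6.45 CPM in the WT libraries. Ri replicate 2 stood apart, while Ri replicate 1 was almost level with WT replicate 2. Both Ri values were above both WT values, as in 17.7% of the tested genes, and the gap between the nearest libraries, 1.06-fold (interval 0.744 to 1.51), was within counting error. The means were 44.1 ± 52.7 CPM in Ri and 4.83 ± 2.29 CPM in WT (SD, n = 2 each).

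Glyma.08G200100 was 25.3-fold higher in Ri replicate 2 than in WT replicate 1 (interval 18.0 to 36.5) and 12.6-fold higher than in WT replicate 2 (interval 9.83 to 16.4). Against Ri replicate 1 the ratio was 11.9 (interval 9.28 to 15.5), and the WT replicates differed 2.00-fold. The fitted log2 fold change of 3.19 ± 1.19 (SE) had an unadjusted p of 0.0441 and did not pass, at an adjusted p of 0.780 in edgeR and of 0.755 to 0.953 in the alternatives with all 4 libraries. Without Ri replicate 2 the log2 fold change was 0.50, and without Ri replicate 1 it was 4.08, again with a lone Ri library. Most of the higher mean in Ri therefore came from Ri replicate 2. Ri replicate 1 was 2.13-fold above WT replicate 1 (interval 1.39 to 3.30) but only 1.06-fold above WT replicate 2 (interval 0.744 to 1.51).

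**Figure D2:**
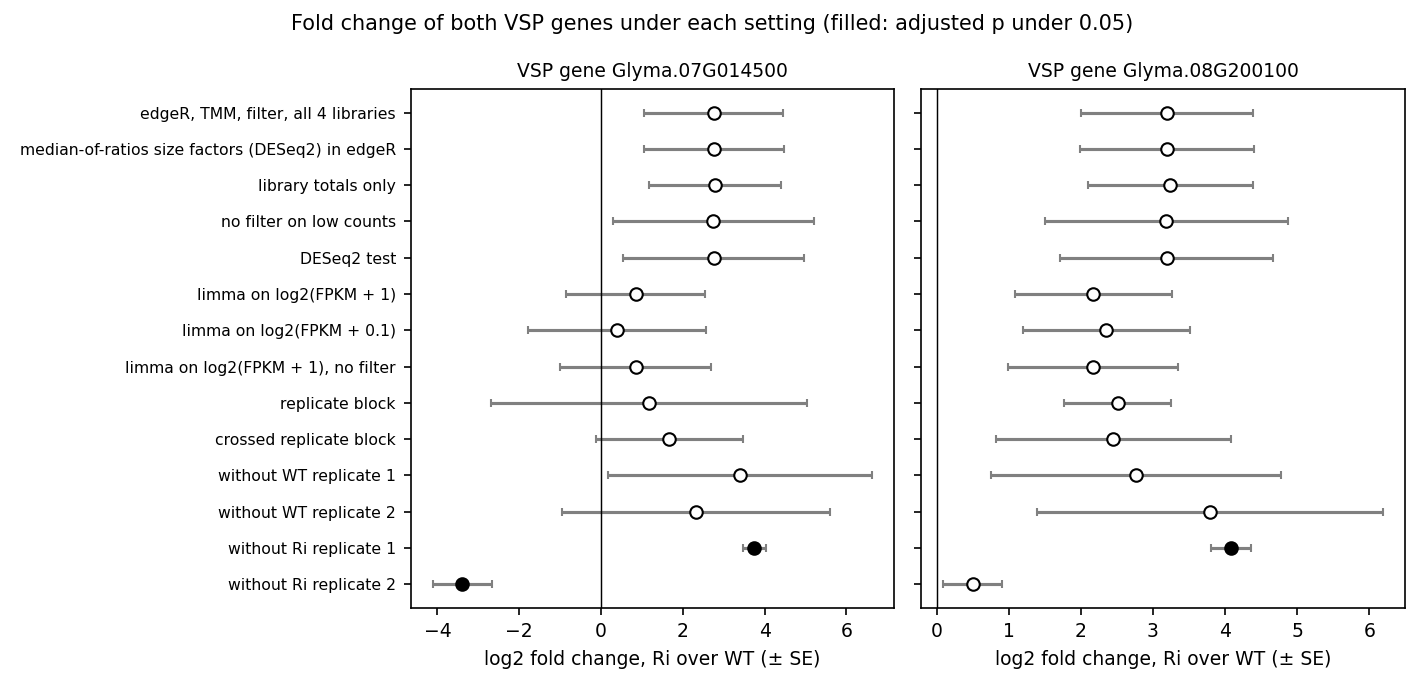
Log2 fold change of Ri over WT for both VSP genes under each setting, with standard errors as bars. Filled points passed an adjusted p of 0.05. All of them come from fits with a lone Ri library, which was assumed to vary like the WT libraries. For Glyma.07G014500 the estimate is -3.39 without Ri replicate 2 and 3.74 without Ri replicate 1. For Glyma.08G200100 it is 0.50 and 4.08.

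Per length, the order of the VSP genes differed from library to library. Glyma.07G014500 had 0.4 and 60.96 FPKM in Ri replicates 1 and 2 and 6.14 and 2.75 FPKM in WT replicates 1 and 2. Glyma.08G200100 had 5.98 and 75.12 FPKM in the Ri libraries and 2.94 and 5.65 FPKM in the WT libraries. The chromosome 8 gene was thus the more abundant of the pair in both Ri libraries and in WT replicate 2, and the chromosome 7 gene in WT replicate 1.

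The level of Glyma.08G200100 over that of Glyma.07G014500 in FPKM was 14.95 in Ri replicate 1 and 1.23 in Ri replicate 2, against 0.479 in WT replicate 1 and 2.05 in WT replicate 2. Summed over the pair, the FPKM was 6.38 and 136 in the Ri libraries and 9.08 and 8.40 in the WT libraries. The WT libraries were close to each other in the sum although the shares of the 2 genes were nearly exchanged. In Ri replicate 1 the sum was below both WT values and came almost wholly from the chromosome 8 gene. It rested on 71 counts, against 100 and 96 in WT replicates 1 and 2, and no interval was computed for the sums. In Ri replicate 2 both genes contributed, and together they took 0.0144% of that library's counts. The share was 0.000705% in Ri replicate 1 and 0.000933% and 0.000898% in the WT libraries.

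**Figure D3:**
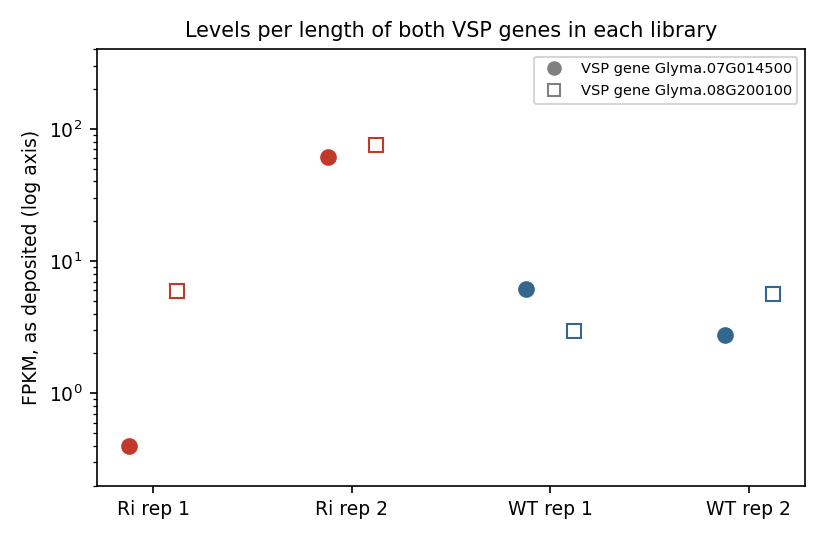
Deposited FPKM of both VSP genes in each library on a log axis, with filled circles for Glyma.07G014500 and open squares for Glyma.08G200100, Ri in red and WT in blue. In Ri replicate 2 the genes are at 60.96 and 75.12 FPKM, and in Ri replicate 1 they are 14.95-fold apart.

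In rank, both VSP genes were near the top of the transcriptome in Ri replicate 2 and in its middle or lower part in the other libraries. Glyma.07G014500 was above 16.5% and 95.9% of the listed genes by FPKM in Ri replicates 1 and 2, and above 58.2% and 41.2% in WT replicates 1 and 2. Glyma.08G200100 was above 61.7% and 96.8% of listed genes in the Ri libraries and above 40.9% and 57.1% in the WT libraries. GmHAD1 stayed in the lower part of every library, above 27.5% and 5.39% of listed genes in Ri and 17.2% and 8.56% in WT. Among the 3 genes GmHAD1 had the lowest FPKM in both WT libraries and in Ri replicate 2. In Ri replicate 1 its 12.02 counts and the 4 counts of Glyma.07G014500 did not differ clearly, with count intervals of 6.20 to 21.0 and 1.09 to 10.2.

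The difference between the Ri replicates was among the larger ones of the tested genes for both VSP genes. Among all 34151 tested genes Glyma.07G014500 had the 5th largest difference between the Ri replicates in either direction, 6.49 on the log2(CPM + 0.25) scale. Only 1 of these genes had a larger excess in Ri replicate 2. Glyma.08G200100, with a difference of 3.52, was in place 83. Between the WT replicates the differences of the same genes were -1.03 and 0.95, in places 1016 and 1325 by size.

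Expression in 1 library at more than 4-fold above all 3 others was found for 36 of the tested genes in Ri replicate 1 and for 93 in Ri replicate 2, against 2 and 6 in WT replicates 1 and 2. Both VSP genes were among the 93. Expression more than 4-fold below all others was found for 204 genes in Ri replicate 1, which included Glyma.07G014500, and for 88 in Ri replicate 2. In the WT libraries it was found for 77 and 34 genes. What set Ri replicate 1 and Ri replicate 2 apart was not tested, as the labels give no batch, plant or harvest record.

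**Figure D4:**
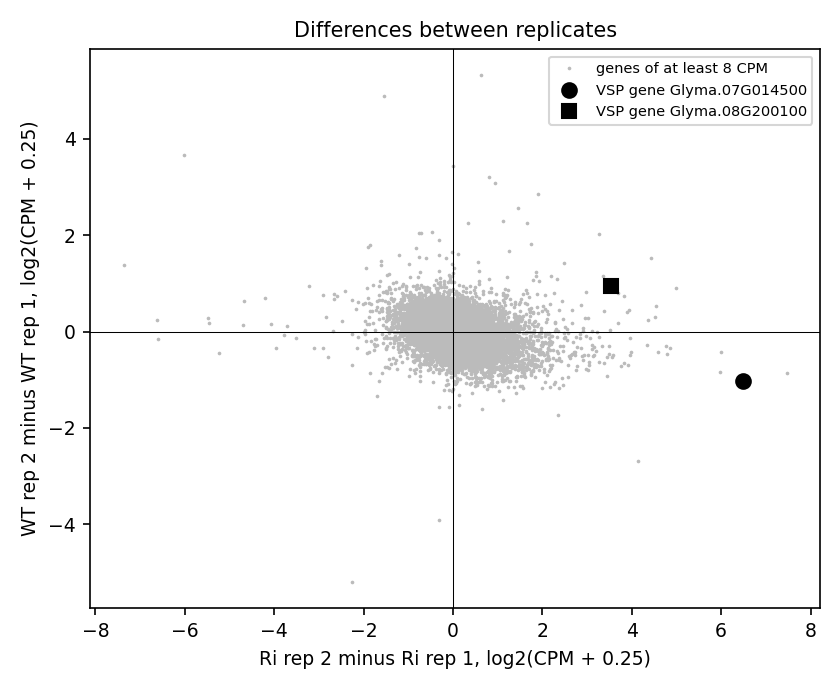
Difference between the Ri replicates (x axis) and between the WT replicates (y axis), as replicate 2 minus replicate 1 in log2(CPM + 0.25), for 20250 genes of at least 8 CPM on average in grey. The VSP genes, in black, reach that average only through Ri replicate 2. They lie far to the right, at 6.49 and 3.52 on the x axis, and at -1.03 and 0.95 on the y axis.

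Other genes were ranked by the likeness of their pattern over the 4 libraries, taken as the root mean square difference of log2(CPM + 0.25) after each gene was centred on its own mean, among tested genes of at least 8 CPM on average. Their identifiers could not be tied to products, and with 4 libraries many genes can share a pattern. Both VSP genes reach the minimum only through Ri replicate 2, as do Glyma.14G177600 and Glyma.17G072200, named below. Genes low in all 4 libraries were left out, so the positions given for likeness hold only within this set. The gene most like Glyma.07G014500 among 20249 was Glyma.14G177600, at a distance of 0.290, with 0.714 and 60.3 CPM in Ri replicates 1 and 2 and 5.06 and 2.70 CPM in WT replicates 1 and 2. It showed the same order of libraries as the VSP gene, with a trough in Ri replicate 1 and a peak in Ri replicate 2. Next came Glyma.10G186700, at 0.631, with 13.1 and 386 CPM in the Ri libraries and 63.4 and 49.6 CPM in the WT libraries.

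The genes most like Glyma.08G200100 were Glyma.17G072200 and Glyma.09G051100, at distances of 0.290 and 0.329. Glyma.17G072200 had 2.33 and 26.3 CPM in the Ri libraries and 1.38 and 3.37 CPM in the WT libraries. Glyma.09G051100 had 16.7 and 221 CPM in Ri and 14.2 and 24.9 CPM in WT. These genes peaked in Ri replicate 2 without a trough in Ri replicate 1. The named genes were picked as the nearest, so every other gene lay farther away by construction. The VSP genes were at a distance of 1.55 from each other. That placed Glyma.08G200100 in position 90 among the genes nearest to Glyma.07G014500, and Glyma.07G014500 in position 1575 among those nearest to Glyma.08G200100.

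Nearest to GmHAD1, whose own pattern rests on 2 to 12.02 counts, were Glyma.06G099500 and Glyma.14G021800 at distances of 0.0838 and 0.143. The added constant of 0.25 CPM is larger than the 0.176 CPM of GmHAD1 in Ri replicate 2. It narrows the differences between libraries for GmHAD1, so these small distances depend on it. Glyma.06G099500 had 59.1 and 18.5 CPM in the Ri libraries and 46.0 and 22.4 CPM in the WT libraries. Glyma.14G021800 had 21.4 and 7.78 CPM in Ri and 16.8 and 9.76 CPM in WT. Both were highest in Ri replicate 1 and lowest in Ri replicate 2, the order of GmHAD1. The VSP genes were in this set only through their peak in Ri replicate 2, and the distance grows with the size of that peak. Their positions among the genes least like GmHAD1, 20246 and 20220 of 20250, therefore add nothing beyond the peak.

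Around each of the 3 members, the 10 tested genes with the nearest identifiers were taken, 5 on each side. Of these 0 passed the adjusted p of 0.05 in edgeR, against 0.117% of all tested genes. Neither VSP gene passed, so this count does not bear on a shared pattern. The neighbours' log2 fold changes ran from -0.97 to 0.47 around Glyma.07G014500 and from -0.87 to 0.71 around Glyma.08G200100. Around GmHAD1 they ran from -0.43 to 0.30. At more than 4-fold above all others, the share of tested genes in Ri replicate 2 was 0.272%. At 2-fold this share was not computed. A level in Ri replicate 2 more than 2-fold above all other libraries was found for 1 of the 10 neighbours of Glyma.08G200100 and for 0 of 10 around each of the other members.

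That neighbour was Glyma.08G200200, the next identifier after the chromosome 8 VSP gene. It had 5 and 38.95 expected counts in Ri replicates 1 and 2, against 17 and 9 in WT replicates 1 and 2. On the other side, Glyma.08G200000, which did not pass the filter on low counts, had 1 and 31 expected counts in the Ri libraries and 3 and 4 in the WT libraries. These genes were picked out after their values were seen. Both were highest in Ri replicate 2, with Ri replicate 2 over Ri replicate 1 at 6.73 (interval 2.65 to 21.9) and 26.7 (interval 4.46 to 1090), in that order. Glyma.08G200200 in Ri replicate 2 was at 2.20 times WT replicate 1, with an interval of 1.21 to 4.14 that includes 2. Both were lowest in Ri replicate 1, but within counting error of the nearest WT library. The ratios to it were 0.589 (interval 0.155 to 1.96) for Glyma.08G200200 and 0.370 (interval 0.00705 to 4.61) for Glyma.08G200000.

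Their listed lengths, 1105 bases for Glyma.08G200200 and 1123 bases for Glyma.08G200000, were close to the 1122 bases of Glyma.08G200100, and the chromosome 7 gene was listed at 1002 bases. Whether they are related to it in sequence was not tested. The values of both VSP genes were whole numbers in every library (within 0.005), as in 13.3% of tested genes. Whether fragments were shared between genes was not tested. The 38.95 counts of Glyma.08G200200 and the 12.02 and 3.02 counts of GmHAD1 were not whole.

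**Figure D5:**
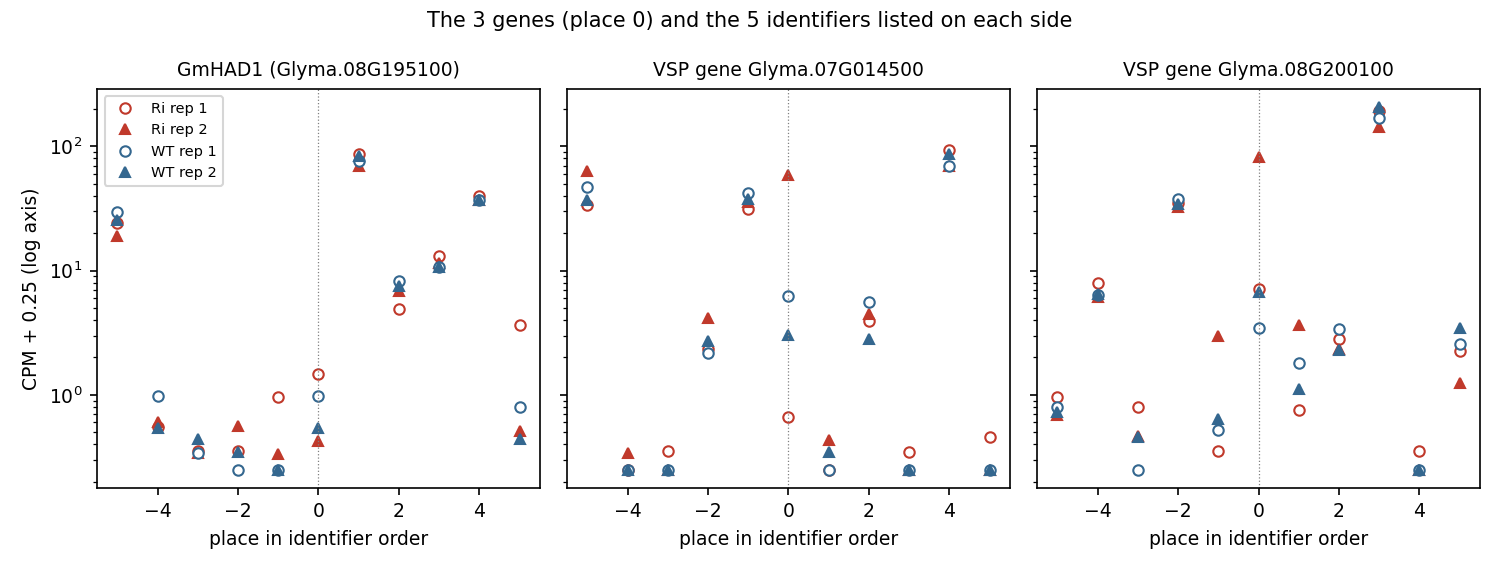
CPM + 0.25 on a log axis for the 3 genes (place 0) and the 5 listed identifiers on each side, in each library, with Ri in red, WT in blue, open circles for replicate 1 and triangles for replicate 2. Around Glyma.08G200100, which is at 81.3 CPM in Ri replicate 2, the adjoining identifiers are also highest there, at 2.73 and 3.43 CPM.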

How the data were processed

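Root mRNA libraries of Ri and WT soybean (n = 2 each) were analysed. Per the labels' protocols, Trizol served for RNA extraction and a BGI RNA-Seq kit for the libraries. The submitters' processing notes list Bowtie2, HISAT and RSEM. Versions, roles and any use of strand in counting were not given there. Per the file headers, the deposited tables give an expected count, which is not normalized, and an FPKM value computed by the authors. Genes missing from a table were taken as 0.

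Expected counts were rounded and tested with edgeR 4.0.16 (R 4.3.3): TMM scaling, its default filter (34151 genes kept), robust quasi-likelihood fits and genotype as the only term, with Benjamini-Hochberg adjustment over all tested genes. A standard error is the log2 fold change over the square root of F. DESeq2 1.42.0, limma 3.58.1 and other settings were alternatives. The fits were tested on simulated data. Genes named beside the members were the 2 nearest in pattern to each. The members and lists were chosen with earlier results of these data known. Lists by product name (other acid phosphatases, phosphate starvation, jasmonate, protein phosphatases, tissue markers) were not run because identifiers matched no product.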

Additional observations from a re-analysis of the deposited data

How the results depend on the processing

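For Glyma.07G014500 the log2 fold change stayed above 0 in the 9 alternatives with all 4 libraries (0.39 to 2.79), and leaving out 1 library gave -3.39 to 3.74, the negative value without Ri replicate 2. For Glyma.08G200100 the 9 alternatives gave 2.17 to 3.24, and leaving out 1 library gave 0.50 to 4.08. Neither gene passed in any of the 9. GmHAD1 had values of 0.10 and 0.40 in unfiltered fits and -0.08 to 1.22 with 1 library left out, and none in the filtered fits with all 4 libraries or without Ri replicate 1. The gene lists were run under no setting. The number of genes called was 40. It was 48 with DESeq2 size factors in edgeR, 164 without a filter and 316 in DESeq2. Scaling by totals alone gave 0 in edgeR, with 2131 genes at an unadjusted p under 0.05. FPKM values in limma also gave 0, with 2212 such genes at a pseudocount of 1, 2191 at 0.1 and 2812 with no filter. Leaving out 1 library gave 0 to 1994. For these counts the cause was not tested. A replicate block in the edgeR fit gave 107 calls, and the log2 fold changes were 1.18 and 2.51 for the VSP genes of chromosomes 7 and 8, neither past the threshold. Whether the replicate numbers pair the libraries is not stated. The replicate differences in Ri and WT had a correlation across genes of -0.31. A crossed replicate block, added after seeing this, called 68 genes. Among genes of at least 8 CPM on average, a minimum that both VSP genes reach only through Ri replicate 2, Glyma.08G200100 was in place 43 by the difference between the Ri replicates, against 83 over all tested genes (chosen after seeing the data). Depth limits GmHAD1, with 2 to 12.02 counts per library. With 2 libraries against 2, an exact two-sided permutation test cannot go below p = 0.333.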
